A study of Mus musculus with 58 samples.

Results

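The germ-line and meiosis genes described here are 39 genes chosen by symbol, of 24077 genes in the count table. They were listed by name for their known roles, with earlier results of these data known, and all 39 have a row. RNA was counted in fully grown oocytes (FGO), the large arrested oocytes of the ovary, in morulae, the compacting embryos before the blastocyst, and in extraembryonic ectoderm (ExE), the trophoblast tissue that forms part of the placenta. The oocytes came from B6.129 mice labelled wild type (CTR, 2 libraries) or Pcgf1/6 double knockout (KO, 2 libraries). All embryos were from B6.129 females crossed to PWK males, and were either wild type (CTR, 2 morula and 2 ExE libraries) or Pcgf1/6 double maternal knockout (matKO, 2 morula and 4 ExE libraries), so the deletion was carried by the mother. The driver of the deletion, the ages of the mice and the number of oocytes or embryos per library are, in the sources used here, not given. Nor is it said whether replicates came from separate animals, so p-values measure the spread between these libraries, which may be technical.

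Meiosis begins in the fetal ovary. Meiotic entry is prepared by germ-cell RNA-binding proteins, after which the chromosomes are cut and repaired by recombination enzymes, held by meiosis-specific cohesins and axis proteins, and zipped together by the synaptonemal complex. Most of these genes are silent in other tissues, and a fully grown oocyte has long finished meiotic entry, recombination and the zipping of chromosomes. PCGF1 and PCGF6 are subunits of separate variant Polycomb repressive complexes, which place a ubiquitin on histone H2A; the complex with PCGF6 also contains E2F6, which binds an E2F site, and the pair MGA and MAX, which bind an E-box, and in mouse embryonic stem cells it is known for silencing germ-line genes.

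Promoter sequences were searched for those recognition motifs because the members include known targets of the complex with PCGF6. Windows of 250 bases before to 50 bases after an annotated start (RefSeq, GRCm38.p6) were found for 34 of the 39 members. Where a gene had several windows, only the first listed was used. The E-box was searched as CACGTG, which reads the same on both strands, and the E2F core as TCCCGC or, on the other strand, GCGGGA; a match of one can share at most 1 base with a match of the other. An E-box was found in 15 of 34 member windows (44.1%), against 7.24% of all 27025 windows and 7.9% of the 17492 windows of protein-coding genes. The E2F core was found in 15 of 34 (44.1%), against 20% of all windows and 25.7% of those of protein-coding genes. Both motifs were present in 9 of 34 (26.5%), against 2.05% and 2.74%. A match is a description of letters and not a site that was shown to be bound.

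The 250 bases before the start used are printed first for the 6 members with the largest change in KO oocytes that passed the test. They run 5′ to 3′ on the strand of the gene, with E-box and E2F core letters in capitals. For Rbm46, Meioc and Taf7l that start lies inside the annotated gene, so some of the Rbm46 and Taf7l bases and most of the Meioc bases do too. They are those of Rbm46 (chr3:82876484-82876733, minus strand), Meioc (chr11:102665335-102665584, plus strand), Taf7l (chrX:134476491-134476740, minus strand), Syce1 (chr7:140787855-140788104, minus strand), Syce3 (chr15:89410504-89410753, minus strand) and Sycp3 (chr10:88459337-88459586, plus strand).
Rbm46: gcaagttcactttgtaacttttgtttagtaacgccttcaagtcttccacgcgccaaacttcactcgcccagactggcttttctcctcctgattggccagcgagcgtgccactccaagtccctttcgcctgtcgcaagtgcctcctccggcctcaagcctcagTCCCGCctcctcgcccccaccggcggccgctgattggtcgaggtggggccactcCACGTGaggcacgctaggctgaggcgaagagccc
Meioc: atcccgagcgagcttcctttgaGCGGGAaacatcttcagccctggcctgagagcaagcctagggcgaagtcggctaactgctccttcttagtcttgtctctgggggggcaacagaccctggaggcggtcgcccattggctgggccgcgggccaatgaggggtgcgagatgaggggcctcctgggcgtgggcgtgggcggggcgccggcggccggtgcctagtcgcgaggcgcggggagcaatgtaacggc
Taf7l: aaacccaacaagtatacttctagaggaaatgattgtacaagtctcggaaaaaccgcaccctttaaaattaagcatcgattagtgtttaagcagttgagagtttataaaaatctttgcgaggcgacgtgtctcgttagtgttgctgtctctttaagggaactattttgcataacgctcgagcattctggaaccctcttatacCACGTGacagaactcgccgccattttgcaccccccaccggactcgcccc
Syce1: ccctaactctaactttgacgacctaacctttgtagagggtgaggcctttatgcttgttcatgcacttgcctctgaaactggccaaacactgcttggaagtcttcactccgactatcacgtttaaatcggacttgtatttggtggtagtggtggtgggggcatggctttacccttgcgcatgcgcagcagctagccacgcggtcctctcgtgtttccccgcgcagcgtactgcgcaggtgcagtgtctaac
Syce3: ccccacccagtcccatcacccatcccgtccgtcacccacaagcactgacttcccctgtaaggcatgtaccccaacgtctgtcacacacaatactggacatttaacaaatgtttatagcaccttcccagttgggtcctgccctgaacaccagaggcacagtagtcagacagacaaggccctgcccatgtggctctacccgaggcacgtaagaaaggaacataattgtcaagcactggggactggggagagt
Sycp3: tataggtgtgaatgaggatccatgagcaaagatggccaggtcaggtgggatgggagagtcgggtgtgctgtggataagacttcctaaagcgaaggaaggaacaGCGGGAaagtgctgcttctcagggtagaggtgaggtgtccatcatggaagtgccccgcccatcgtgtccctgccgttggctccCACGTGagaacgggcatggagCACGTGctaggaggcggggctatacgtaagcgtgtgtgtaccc
Rbm46 and Sycp3 hold both motifs in these bases, Taf7l an E-box only and Meioc an E2F core only. Syce1 and Syce3 hold neither, which says only that these letters are not in this window.

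For comparison, the same bases are printed for Brdt (chr5:107330944-107331193, plus strand) and Dazl (chr17:50293621-50293870, minus strand), the members with the highest read counts in CTR oocytes among those that did not pass the test.
Brdt: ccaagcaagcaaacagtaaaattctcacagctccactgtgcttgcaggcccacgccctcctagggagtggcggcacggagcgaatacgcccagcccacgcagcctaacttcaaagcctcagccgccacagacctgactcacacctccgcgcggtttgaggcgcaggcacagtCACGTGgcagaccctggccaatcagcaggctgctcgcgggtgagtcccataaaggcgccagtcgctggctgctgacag
Dazl: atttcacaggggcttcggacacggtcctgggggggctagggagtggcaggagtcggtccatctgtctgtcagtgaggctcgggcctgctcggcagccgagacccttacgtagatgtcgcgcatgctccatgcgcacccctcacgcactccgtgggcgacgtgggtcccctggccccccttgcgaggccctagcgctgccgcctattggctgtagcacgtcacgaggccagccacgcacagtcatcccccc
Brdt holds an E-box although its level was not called changed, and Dazl holds neither motif. The start used for Brdt also lies inside its annotated gene. Over all members with a window, an E-box was found in 7 of the 11 that rose in KO oocytes and in 8 of the 20 that were tested and did not rise. For the E2F core the counts were 6 of 11 and 8 of 20, and for both motifs together 5 of 11 and 4 of 20. These differences were not tested.

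**Figure D1:**
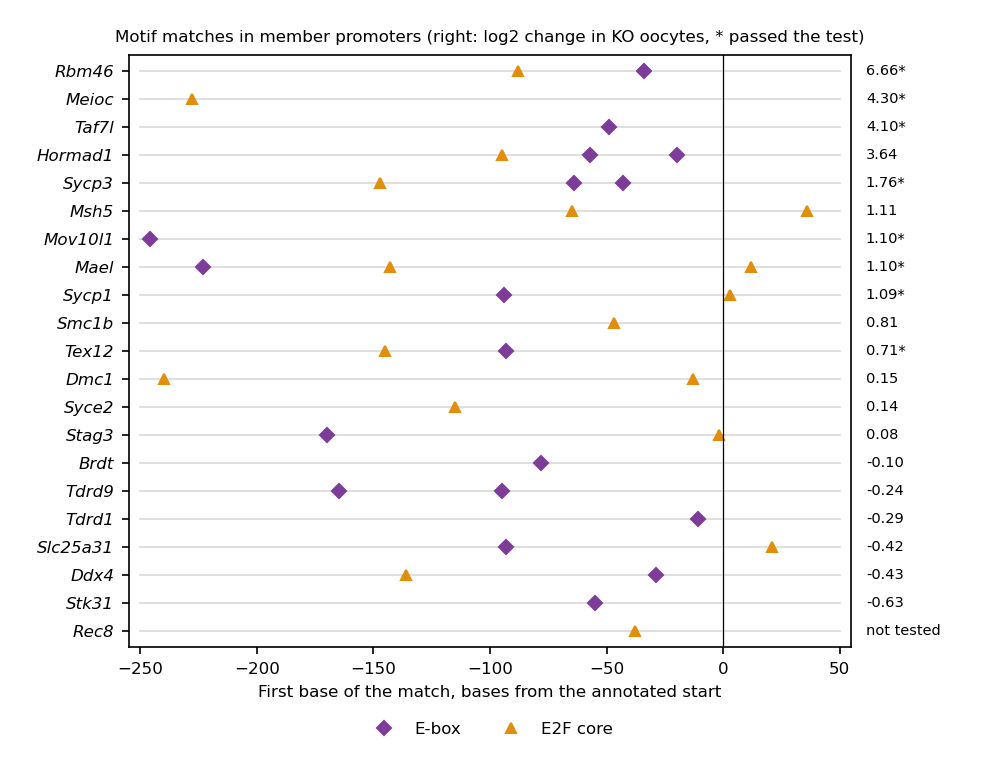
Positions of E-box and E2F core matches in the promoter windows of the members that hold at least 1 match, in bases from the annotated start, ordered by the log2 change in KO oocytes printed at the right, where an asterisk marks a change that passed the test. Matches occur both in members that rose, such as Rbm46 and Sycp3, and in members that did not, such as Ddx4 and Stk31.

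FGO libraries held 19805264 to 26364085 counts, so that 3 counts correspond to 0.114 to 0.151 CPM (counts scaled to a common library total). Morula libraries held 1299715 to 1685510 counts and ExE libraries 3397585 to 4361832, with 3 counts at 1.78 to 2.31 and 0.688 to 0.883 CPM. The embryo counts are sums of reads assigned to the maternal or the paternal genome, so a transcript without a readable strain difference would be listed at 0 at any level. Pcgf1 had 1406 and 1100.2 CPM in CTR against 34.9 and 22.8 in KO oocytes, and Pcgf6 396 and 429 against 177 and 219.7; the deleted exons are not given, and reads outside them still count. Oocyte markers such as Gdf9 and Zp3 were present in every oocyte library, but their summed level differed. It was 13205 CPM in KO replicate 1 against 17649 to 18173 in the other 3. Granulosa markers summed to 169.7 CPM in KO replicate 1 against 89.7 to 95.1 in the other 3, with Amh at 0 in both KO libraries. Of the 8 granulosa markers tested, only Nr2f2 was called, higher in KO oocytes, and their median log2 change was 0.02. One ExE library stood apart before any comparison: in matKO replicate 3, 35.1% of autosomal reads were maternal, against 51.2% to 51.5% in the other 5. Levels are compared only within a gene, since lengths of transcripts were not at hand.

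In CTR oocytes, 25 of the 39 members had a mean of at least 5 CPM (called on), 6 lay between 1 and 5 CPM (low), and 8 lay under 1 CPM (near silent). The members that were on included Dazl, Brdt, Syce2 and most genes of the piRNA pathway. The near silent ones were Msh5, Rbm46, Syce3, Taf7l, Rec8, Tex101, Stra8 and Spo11. No read of Rec8 was counted in any of the 14 libraries, and Stra8, an inducer of meiotic entry, had none in any oocyte library.

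In Pcgf1/6 KO oocytes, 11 members rose and 2 fell. Of the 7 synaptonemal complex genes 5 rose and 1 fell, and of the 8 recombination genes none rose and 1 fell. The members with the largest rise, Rbm46, Meioc and Taf7l, lay at 0.114 to 2.02 CPM in CTR oocytes. Of the 39 members, 35 passed the filter on low counts; Rec8, Stra8, Tex101 and Spo11 did not. Called were 11 higher and 2 lower with edgeR's quasi-likelihood test at a Benjamini-Hochberg adjusted p under 0.05, where the same rule called 5.35% of all 13459 genes tested higher and 1.87% lower. Syce3 and Taf7l, with 3 or 4 reads in each CTR library, pass the filter only through the KO libraries, so the 25 that were on, all of which were tested, are also given alone: 7 rose and 2 fell, against 2.24% and 2.52% of the 8676 genes at such levels. The median log2 change was 0.15 over the 35 members and 0.0039 over all genes tested.

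**Figure D2:**
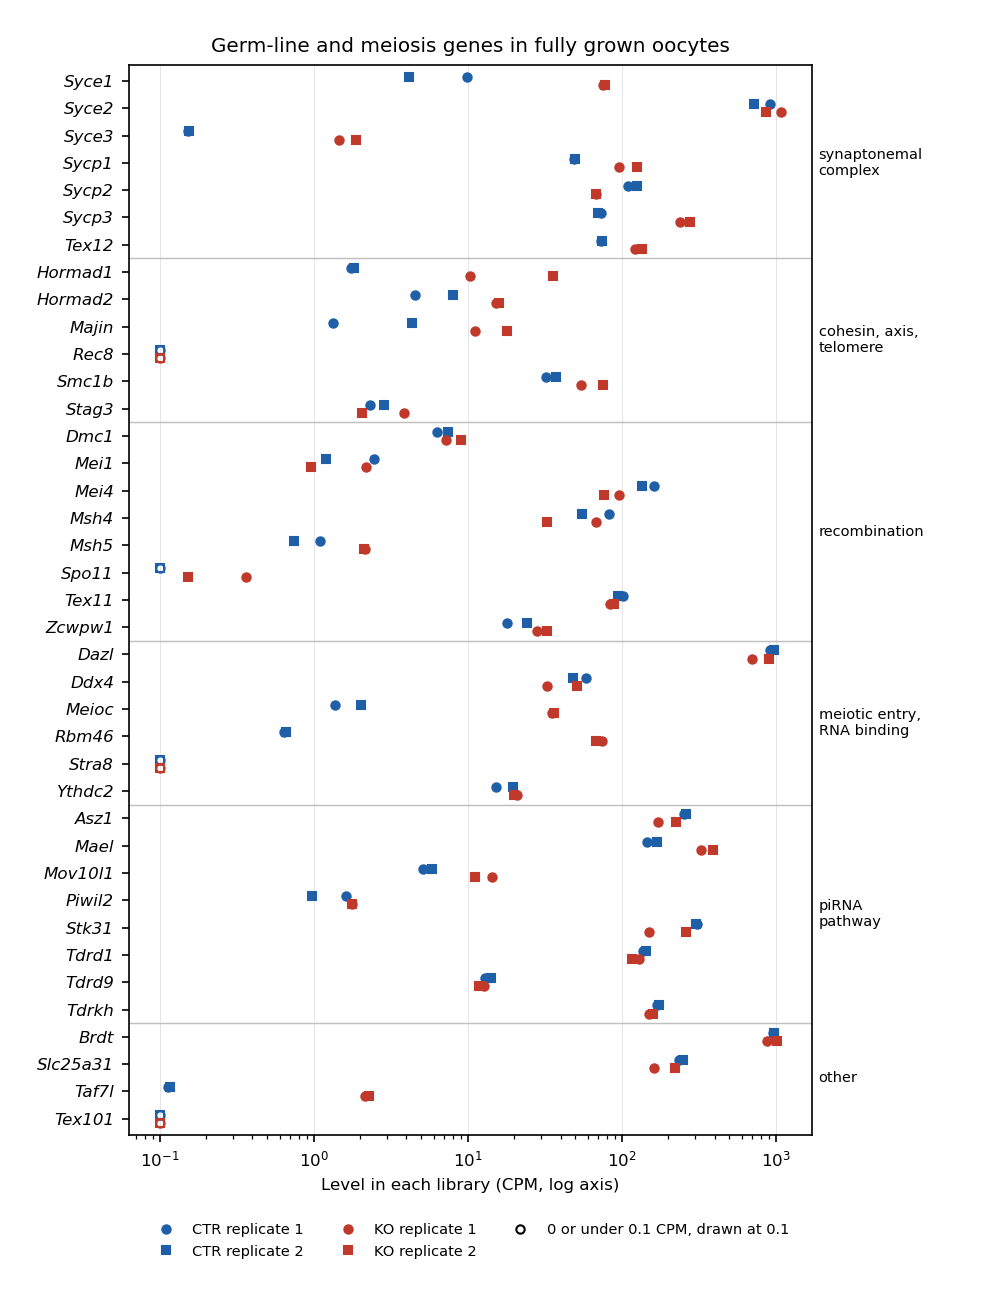
Level of each member in the 4 oocyte libraries (CPM, log axis), by role, with CTR in blue and KO in red; open symbols are drawn at 0.1 CPM for values below it. Rbm46 moved from 0.645 and 0.661 to 74.4 and 68.3 CPM, while Syce2 and Brdt overlapped between genotypes at high levels; positions of different genes are not corrected for length.

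Synaptonemal complex genes encode the zipper between paired chromosomes. Syce1, a central element protein, had 9.82 and 4.16 CPM in CTR and 75.1 and 77.7 CPM in KO oocytes (log2 change 3.36, SE 0.39, edgeR adjusted p = 0.00599). Syce3, another central element protein, had 0.152 and 0.156 CPM in CTR and 1.45 and 1.87 in KO oocytes (log2 3.30, SE 0.59, edgeR adjusted p = 0.0127). Its 8 CTR and 69 KO reads give a ratio of 10.7 with a 95% counting interval of 5.16 to 25.9. For both genes the KO libraries lay far above the CTR libraries, but Syce3 stayed at a trace level.

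Sycp3, a component of the lateral elements, had 73.3 and 69.9 CPM in CTR and 237 and 278 CPM in KO oocytes (log2 1.76, SE 0.18, edgeR adjusted p = 0.00122). Sycp1, the transverse filament, had 48.9 and 49.5 CPM against 96.1 and 125 (log2 1.09, SE 0.20, edgeR adjusted p = 0.0149). Tex12, a central element protein, had 73.2 and 74.3 CPM against 122 and 135 (log2 0.71, SE 0.16, edgeR adjusted p = 0.0329). These 3 genes were already on in CTR oocytes, and in each both KO libraries were higher than both CTR libraries.

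Sycp2, the partner of SYCP3 in the lateral elements, went the other way, with 110.3 and 125 CPM in CTR and 68.3 and 68.1 CPM in KO oocytes (log2 -0.88, SE 0.15, edgeR adjusted p = 0.0115). Syce2, the remaining central element gene, had 917 and 720.3 CPM in CTR and 1077 and 858 in KO oocytes, which overlap (log2 0.14, SE 0.17, edgeR adjusted p = 0.722). Thus members of 1 structure rose, fell or overlapped between genotypes in the same cells. Libraries of this kit do not mark strand, and 2 of the genes that rose overlap a protein-coding neighbour. Chpt1, which overlaps Sycp3, was also higher in KO oocytes (log2 1.16, SE 0.26, edgeR adjusted p = 0.0316), as was Il18, which overlaps Tex12 (log2 1.62, SE 0.28, edgeR adjusted p = 0.0121). Reads from such pairs may not be separable, and their share was not tested.

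Among the 6 cohesin, axis and telomere genes, 1 rose and none fell. Hormad2, an axis protein that marks unpaired chromosomes, had 4.51 and 8.05 CPM in CTR and 15.2 and 16.1 CPM in KO oocytes (log2 1.22, SE 0.31, edgeR adjusted p = 0.0493). Just outside the threshold were 3 genes whose KO libraries both lay above the CTR libraries, and the DESeq2 Wald test called all 3 (adjusted p = 0.00191 for Hormad1, 0.000112 for Majin and 0.0278 for Smc1b), which makes 4 of this group and 16 members in all. That test also called more genes over the whole table, 1238 against 972 by edgeR. Hormad1, the other HORMA-domain axis protein, had 1.74 and 1.83 CPM against 10.4 and 35.7 (log2 3.64, SE 0.78, edgeR adjusted p = 0.0746). Majin, which anchors telomeres to the nuclear envelope, had 1.33 and 4.36 CPM against 11.1 and 18 (log2 2.28, SE 0.59, edgeR adjusted p = 0.0843). The KO replicates of Hormad1 and the CTR replicates of Majin differed among themselves by more than 3-fold. Smc1b, the meiotic cohesin ring subunit, had 32.4 and 37.5 CPM against 54 and 75.6 (log2 0.81, SE 0.24, edgeR adjusted p = 0.0859). Stag3, another meiotic cohesin subunit, had a log2 change of 0.08 (SE 0.37).

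Of the recombination genes only Mei4 was called. Mei4, needed for the cutting of DNA that starts recombination, had 161 and 136 CPM in CTR against 96 and 77.1 CPM in KO oocytes (log2 -0.88, SE 0.15, edgeR adjusted p = 0.0105). Tex11, which acts in crossing over, had 102 and 94.8 CPM against 83.7 and 88.8, and Msh4, a mismatch-repair relative that stabilises crossover intermediates, had 82 and 54.9 against 68 and 32.6. Neither passed the test (edgeR adjusted p = 0.348 and 0.357), and the Msh4 groups overlap. The log2 changes of the other 4 tested, Dmc1, Msh5, Mei1 and Zcwpw1, lay between -0.34 and 1.11, none past the threshold. Spo11, the enzyme that makes the cuts, had 0 reads in CTR and 11 in KO oocytes, a difference of at least 4.57-fold higher when 3 counts over both CTR libraries are taken as the floor.

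In the group of meiotic entry and germ-cell RNA binding, 2 genes rose steeply and the rest did not pass the test. Rbm46, an RNA-binding protein required for meiotic entry, went from 17 reads in each CTR library to 1637 and 1353 reads in the KO libraries (log2 6.66, SE 0.23, edgeR adjusted p = 5.18e-06). Meioc, which works with YTHDC2 to stabilise the meiotic programme, had 1.37 and 2.02 CPM in CTR and 35.1 and 36.1 CPM in KO oocytes (log2 4.30, SE 0.27, edgeR adjusted p = 0.000168). Its partner Ythdc2 had 15.2 and 19.6 CPM against 20.9 and 19.9 (log2 0.13, SE 0.21, edgeR adjusted p = 0.780). So 1 partner rose, and the other, already on, did not pass the test.

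Dazl, a translational regulator of germ cells, had 911 and 972 CPM in CTR and 701 and 899.6 CPM in KO oocytes (log2 -0.32, SE 0.20, edgeR adjusted p = 0.426). Ddx4, the germ-cell helicase also called Vasa, had 58.8 and 47.9 CPM against 32.6 and 51 (log2 -0.43, SE 0.28, edgeR adjusted p = 0.431). For both genes the lower KO value was that of replicate 1, the library in which the summed oocyte markers were also lower. Whether the state of that library bears on these values was not tested.

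Genes of the piRNA pathway, which silences transposons with small RNAs, had a negative median log2 change of -0.24, although 2 of 8 rose. Mael had 146 and 169 CPM in CTR and 327 and 391 CPM in KO oocytes (log2 1.10, SE 0.19, edgeR adjusted p = 0.0107). Mov10l1, the helicase that feeds piRNA precursors into processing, had 5.12 and 5.87 CPM against 14.3 and 11.2 (log2 1.10, SE 0.24, edgeR adjusted p = 0.0287). In both, the genotypes did not overlap.

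Stk31 had 308 and 302 CPM in CTR and 149.8 and 263 CPM in KO oocytes (edgeR adjusted p = 0.311). Asz1, a mitochondrial scaffold of the pathway, had 254 and 259.8 against 171 and 224 (edgeR adjusted p = 0.231), and Tdrkh, which tethers PIWI proteins to mitochondria, had 170.3 and 174 against 150.4 and 159.5 (edgeR adjusted p = 0.403). All 3 were lower in both KO libraries without passing the threshold. The log2 changes of Tdrd1, Tdrd9 and Piwil2 lay between -0.29 and 0.34, none past the threshold.

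Of the other 4 genes, Taf7l, an X-linked germ-cell relative of a general transcription factor, went from 3 reads in each CTR library to 47 and 45 reads in the KO libraries (log2 4.10, SE 0.57, edgeR adjusted p = 0.00485). The reads give a ratio with a 95% counting interval of 8.45 to 53.4, at levels of only 2.14 and 2.27 CPM. Brdt, a chromatin reader of spermatids, overlapped between genotypes at 953 and 969 CPM in CTR and 878 and 1025 in KO oocytes (edgeR adjusted p = 0.812). Slc25a31, a germ-cell ATP carrier, had 235 and 250.1 CPM against 163 and 220.0 (edgeR adjusted p = 0.298). Tex101, a germ-cell surface protein, had 1 read in the 4 oocyte libraries.

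**Figure D3:**
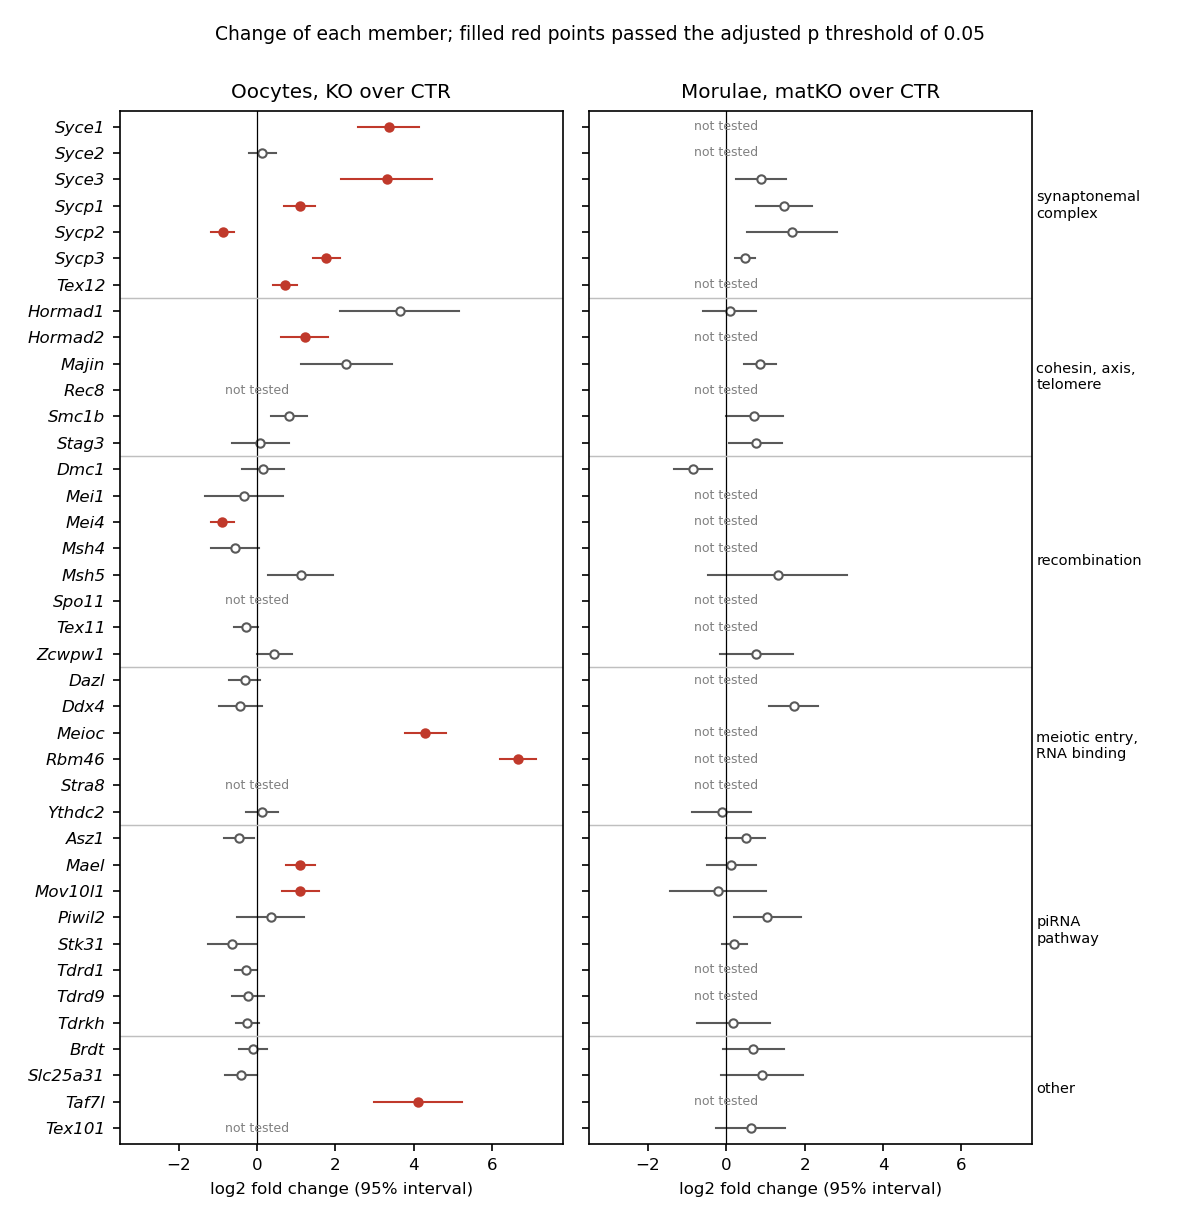
Log2 fold change of each member with its 95% interval in KO oocytes (left) and matKO morulae (right), by role. Intervals use a normal quantile and are narrower than the F test implies. Filled red points passed the adjusted p threshold of 0.05. In oocytes 11 members rose and 2 fell, and in morulae no member passed, although 19 of 22 points lie above 0.

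Several of these calls were lost when 1 library was left out, with a log2 change that stayed on the same side. Hormad2 was not called without CTR replicate 1 (edgeR adjusted p = 0.221), KO replicate 1 (0.0775) or KO replicate 2 (0.0912), at log2 changes of 0.85 to 1.36. Mov10l1 was not called without CTR replicate 1 (0.154), CTR replicate 2 (0.0734) or KO replicate 1 (0.0679), at 0.99 to 1.21. Tex12 was not called without CTR replicate 1 (0.154) or CTR replicate 2 (0.120), at 0.68 and 0.72. Syce1 was not called without KO replicate 1 (0.133) or KO replicate 2 (0.0708), although its log2 change stayed at 3.48 and 3.22. Mei4 was not called without CTR replicate 1 (log2 -0.77, 0.0565), nor Sycp2 without CTR replicate 2 (log2 -0.79, 0.0592). The calls of Rbm46, Meioc, Taf7l, Syce3, Sycp3, Mael and Sycp1 held when any 1 library was left out. Without KO replicate 2, which leaves replicate 1 as the only KO library, more members were called, and calls over all genes rose as well. Members that gained a call there were Dazl (log2 -0.64), Ddx4 (-0.92), Stk31 (-1.23), Asz1 (-0.80), Brdt (-0.34), Slc25a31 (-0.78) and Hormad1 (2.32).

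A wider list of 55 other meiosis and germ-cell genes, 47 of them in the table, showed fewer calls. Of 43 tested, 4 rose and none fell, and their median log2 change was 0.11. The 4 were Sohlh1 (log2 7.39, SE 0.74, edgeR adjusted p = 0.00122) and Sohlh2 (3.71, SE 0.20, adjusted p = 8.75e-05), transcription factors of early oocytes, Ccnb1ip1 (2.27, SE 0.23, adjusted p = 0.00122), a crossover regulator, and Spata22 (4.89, SE 0.86, adjusted p = 0.0118), a recombination protein. Over all genes tested 7.22% were called in either direction, against 9.3% of the tested genes of this list.

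In morulae from KO oocytes no member passed the test, yet most tested members lay on the higher side. With edgeR's quasi-likelihood test, 0 of the 22 members tested were called, where 0.0221% of all 9063 genes were called higher and 0.11% lower. In that test 8 members had an unadjusted p under 0.05. The DESeq2 Wald test called 2, Ddx4 and Sycp1, among 208 genes called in all. The log2 change was positive in 19 of 22 (86.4%) against 48.4% of all genes tested, and the median was 0.70 against -0.0185. Summed over all members, the level was 943 and 1116 CPM in CTR and 1712 and 1450 CPM in matKO morulae. In the same libraries the 8 oocyte markers summed to 55.2 and 65.5 CPM in CTR and 102 and 71.2 in matKO, and the morula and trophectoderm markers to 1733 and 1655 in CTR and 1020 and 1278 in matKO, with Pou5f1 and Tdgf1 at 0 in all 4. Granulosa markers summed to 258.7 and 232 CPM in CTR and 400.1 and 326 in matKO. Of these 12 markers, 6 were at 0 in each CTR library and 8 in each matKO library. Among them, 5, such as Fshr and Cyp19a1, were at 0 in all 4 libraries. Their part in the members' values was not tested, and in such bulk samples fewer cells of a type and less RNA per cell cannot be told apart.

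Ddx4 had the lowest p among the members, with 32.6 and 69.9 CPM in CTR and 174 and 154 CPM in matKO morulae (log2 1.72, SE 0.32, edgeR adjusted p = 0.0743). Sycp1 had 35 and 84.4 CPM against 180.0 and 142 (log2 1.47, SE 0.36, edgeR adjusted p = 0.111). Majin had 93.7 and 146 CPM against 206 and 213 (log2 0.85, SE 0.21, edgeR adjusted p = 0.111). In each of these genes both matKO libraries were above both CTR libraries, and CTR replicate 1 was the lowest. Called without CTR replicate 2, which leaves the lower CTR library as the only control, were Ddx4 (log2 2.39), Sycp1 (2.26), Majin (1.22) and Sycp2 (3.17). Calls over all genes rose there as well. Without CTR replicate 1 these genes were not called. Both fits assume that a single CTR library varies like the others.

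Sycp3 had 140.0 and 134 CPM in CTR and 186 and 185 CPM in matKO morulae (log2 0.48, SE 0.13, edgeR adjusted p = 0.133), with replicates close together. Sycp2 had 6.53 and 30.2 CPM against 53.1 and 60.8 (log2 1.68, SE 0.58, edgeR adjusted p = 0.185), and Syce3 had 42.7 and 29 against 76.9 and 51.9 (log2 0.88, SE 0.32, edgeR adjusted p = 0.202). All 4 synaptonemal complex genes tested were thus higher in both matKO libraries than in either CTR library. Dmc1, the strand-exchange recombinase of meiosis, went the other way, with 87.2 and 88.8 CPM against 38.5 and 55.6 (log2 -0.86, SE 0.25, edgeR adjusted p = 0.139). Without matKO replicate 2 it was called lower (log2 -1.15), in a fit where calls over all genes rose as well.

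Piwil2, a PIWI protein of the piRNA pathway, had 29.7 and 22 CPM in CTR and 72.3 and 31.9 CPM in matKO morulae (log2 1.05, SE 0.43, edgeR adjusted p = 0.242). In the same fit without matKO replicate 2 it was called higher (log2 1.53). So was Tex11 (log2 3.10), which had 4 and 6 reads in CTR and 34 and 8 in matKO and did not pass the filter with all libraries. For both genes the high value was that of matKO replicate 1. Stag3 had 19.6 and 18.9 CPM against 35.4 and 27.5, and Smc1b 24.9 and 15.1 against 33.1 and 31.2, both higher in each matKO library without passing the test (edgeR adjusted p = 0.289 and 0.333).

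Values of several other members were close or overlapped, and none passed the test. Stk31 had 92 and 97.6 CPM in CTR and 105 and 108 in matKO, Asz1 71.8 and 47.9 against 77.7 and 86.1, and Mael 30.9 and 29 against 36.2 and 27.5. The Mael values overlap between genotypes, as do those of Hormad1 at 106 and 64.3 against 115 and 60.8 CPM. Brdt had 22 and 30.2 against 53.1 and 28.9 CPM, and Slc25a31 had 17.2 and 59.8 against 87.7 and 53.4, overlapping in both genes. Ythdc2 had 27.3 and 38.4 against 21.5 and 37.1 CPM, Mov10l1 8.31 and 24.6 against 17.7 and 9.65, and Tdrkh 10.7 and 19.5 against 17.7 and 15.6, so these overlap too. Syce1, Syce2, Tex12, Hormad2, Msh4, Spo11 and Rec8 had 0 reads in every morula library, Rbm46 had 2 and Taf7l 3. Whether their transcripts carry a readable strain difference was not tested.

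**Figure D4:**
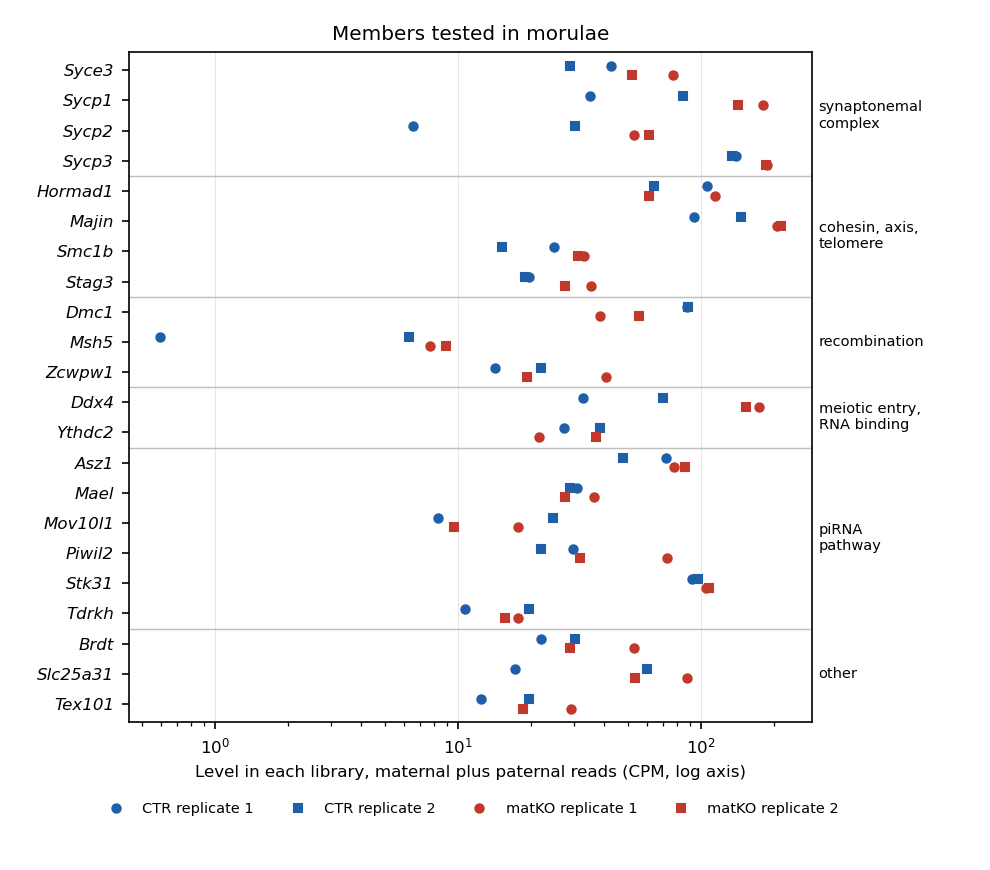
Level of the 22 members tested in morulae in each library (CPM of maternal plus paternal reads, log axis), with CTR in blue and matKO in red. Ddx4, Sycp1, Sycp2 and Majin are higher in both matKO libraries than in both CTR libraries, Dmc1 is lower, and Mael and Hormad1 overlap.

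A direct test of the change in morulae against that in oocytes, in 1 fit of both stages without shared controls, called 5 of 36 members (2 higher and 3 lower, where 0.38% and 2.24% of all 14719 genes tested were, 2.62% in all). Sycp2 and Ddx4 had a more positive change in morulae, by log2 2.56 (SE 0.57, edgeR adjusted p = 0.0441) and 2.13 (SE 0.49, edgeR adjusted p = 0.0454): Sycp2 fell in oocytes, and its morula values pointed up. Sycp3 had a smaller change in morulae, by log2 -1.29 (SE 0.24, edgeR adjusted p = 0.0144). Meioc differed by log2 -4.37 (SE 0.79, edgeR adjusted p = 0.0119), with 8 reads in CTR and 6 in matKO morulae. Rbm46 was also called (edgeR adjusted p = 0.0395), but its morula reads were 2 in CTR and 0 in matKO, at or under the floor, so no size is given here.

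Those calls were fragile. Leaving out 1 of the 8 libraries in turn left 1 to 6 members called. Sycp2 was lost in 6 of the 8 such fits and Ddx4 in 6, while Sycp3 was lost in 4, Rbm46 in 6, and Meioc only without morula CTR replicate 1 (edgeR adjusted p = 0.143). The largest adjusted p among these fits was 0.174 for Sycp2 and 0.180 for Ddx4, both without morula matKO replicate 1, and 0.0776 for Sycp3 without FGO CTR replicate 2. The direction was kept in every one of these fits.

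Parental origin could be followed in morulae for 21 members with a mean of at least 20 assigned reads per library. In 1 cross direction, parent and strain cannot be told apart, so a maternal excess is equally an excess of the B6.129 allele. In CTR morulae 7 of 21 were called unequal, 2 towards the paternal and 5 towards the maternal allele, where 10.4% and 14.8% of all 7637 genes were. Mael was mostly paternal, with 7.69% (95% exact binomial interval 2.14 to 18.5) and 8.7% (2.42 to 20.8) maternal reads in the CTR libraries (log2 paternal over maternal 3.53, SE 0.47, edgeR adjusted p = 0.00317). Sycp2 also leaned to the paternal side, with 27.3% of 11 reads and 8.33% of 48 reads maternal (log2 2.81, SE 0.76, edgeR adjusted p = 0.0393).

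Ddx4 was mostly maternal in CTR morulae, at 89.1% (77.8 to 95.9) and 79.3% (70.5 to 86.4) of reads (log2 -2.20, SE 0.35, edgeR adjusted p = 0.00638). Asz1 had 76.9% and 78.9% maternal reads (log2 -1.72, SE 0.27, edgeR adjusted p = 0.00567), Syce3 76.4% and 67.4% (log2 -1.31, SE 0.31, edgeR adjusted p = 0.0251). Sycp3 had 64.8% and 63.8% (log2 -0.77, SE 0.12, edgeR adjusted p = 0.00634), and Dmc1 67.3% and 66% (log2 -0.92, SE 0.20, edgeR adjusted p = 0.0177). The CTR replicates of each of these 5 genes leaned the same way. Without either CTR library, the calls of Asz1, Syce3, Sycp3, Dmc1 and Sycp2 were lost (edgeR adjusted p from 0.0538 for Asz1 without CTR replicate 2 to 0.533 for Sycp2 without CTR replicate 2), and those of Ddx4 and Mael held.

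In matKO morulae no member shifted between alleles past the threshold: edgeR called 0 of 21 (0.0393% of all genes), and 2 had an unadjusted p under 0.05. For Ddx4 the maternal share was 57.1% (50.3 to 63.6) and 69.6% (62.8 to 75.8), below both CTR libraries (shift towards paternal log2 1.45, SE 0.45, edgeR adjusted p = 0.446). Its paternal reads numbered 6 and 23 in CTR and 97 and 63 in the shallower matKO libraries, and its maternal reads 49 and 88 against 129 and 144, so reads of both alleles were more numerous. Fitted on paternal reads alone, Ddx4 had a log2 change of 2.75 (SE 0.53, edgeR adjusted p = 0.0564), Sycp1 1.26 (SE 0.31, adjusted p = 0.0989) and Majin 0.77 (SE 0.17, adjusted p = 0.0751). On maternal reads alone the values were 1.35 for Ddx4 (SE 0.29, edgeR adjusted p = 0.122), 1.71 for Sycp1 (SE 0.50, adjusted p = 0.186) and 0.91 for Majin (SE 0.32, adjusted p = 0.232). None of these passed the threshold.

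Mael had a higher maternal share that did not pass the test, with 34% (20.9 to 49.3) and 18.9% (7.96 to 35.2) maternal reads in matKO morulae (log2 -2.04, SE 0.65, edgeR adjusted p = 0.478), from 16 and 7 maternal reads against 4 and 4 in CTR. Both matKO shares were above both CTR shares, although the interval of matKO replicate 2 overlaps those of both CTR libraries. For Sycp3 the share was 60.3% and 62.8%, against 64.8% and 63.8% in CTR, a difference inside the counting intervals. Majin stayed near an even split, at 38% and 51.1% maternal in CTR and 48.5% and 46% in matKO. Across all 21 members the median shift was 0.0114.

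**Figure D5:**
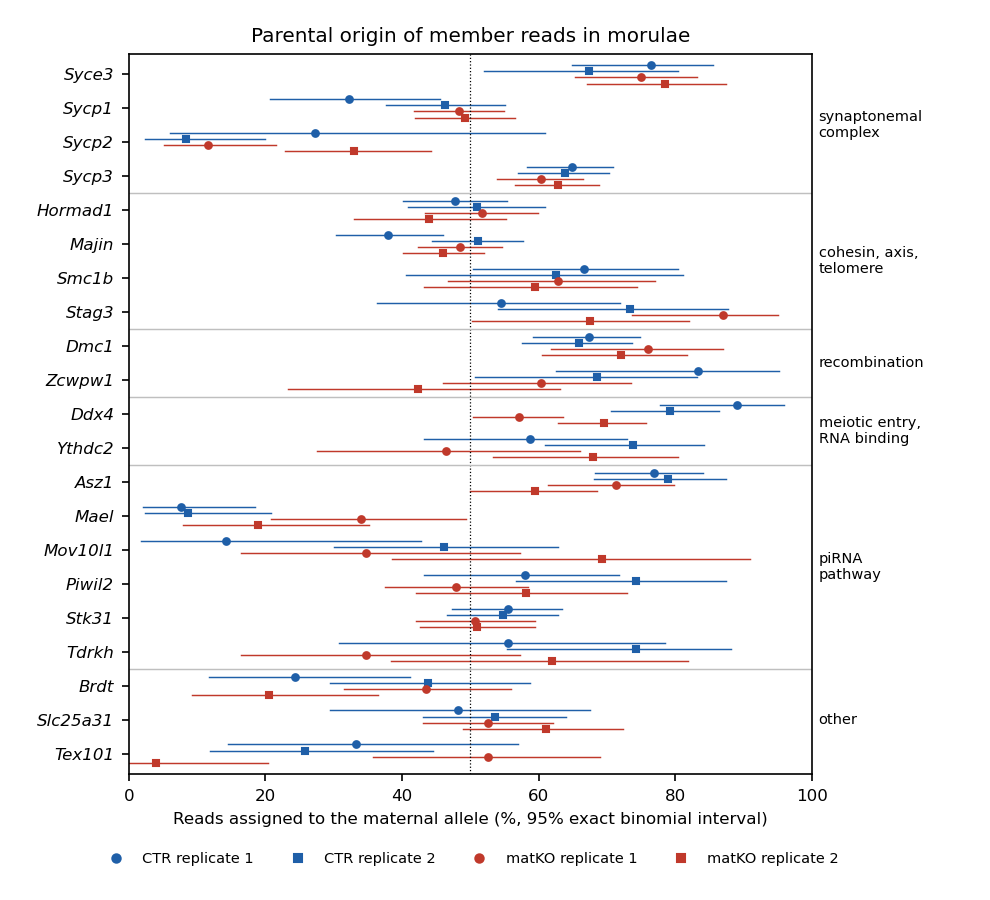
Percentage of reads assigned to the maternal allele for the 21 members tested in each morula library, with 95% exact binomial intervals that cover counting error only; blue is CTR, red is matKO, and the dotted line marks 50%. Ddx4 lies at 79.3% to 89.1% in CTR and 57.1% to 69.6% in matKO, and Mael at 7.69% to 8.7% and 18.9% to 34%.

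ExE held few reads of these genes, and no difference between genotypes was called. The summed level of all members was 93.6 and 90.3 CPM in CTR and 90.2 to 121.7 CPM in matKO libraries. The 8 ExE markers, such as Elf5 and Eomes, summed to 1070 and 1084 CPM in CTR and 1122 to 1451 in matKO, with Bmp4 at 0 throughout, and the 5 blood markers were at 0 in every library. The morula and trophectoderm markers summed to 7760 and 8261 CPM in CTR and 2456 to 5273 in matKO. The 5 decidua markers summed to 18.3 CPM in matKO replicate 1 and at most 0.229 in the other 5 libraries. In matKO replicate 1 that sum was Prl8a2 alone, with the other 4 at 0. The part of all these markers in the members' values was not tested. With edgeR's quasi-likelihood test 0 of the 13 members tested were called (0% of all 8386 genes), 0 had an unadjusted p under 0.05, and the DESeq2 Wald test called 0. Members with the most reads were Stk31, at 10.4 and 11.9 CPM in CTR and 10.3 to 18.6 in matKO, and Ddx4, at 15.4 and 8.25 in CTR and 13 to 19 in matKO. Their log2 changes were 0.34 (95% interval -0.31 to 0.98) and 0.43 (-0.19 to 1.05). These intervals use a normal quantile and are narrower than the F test implies. Ddx4 had log2 1.72 in morulae, and the difference between the tissues was not tested. Ythdc2 had 6.64 and 12.2 CPM in CTR and 9.49 to 12.5 in matKO, Mei4 10.7 and 8.25 against 6 to 13, and Mov10l1 7.35 and 5.27 against 4.59 to 9.42. Sycp1 had 5.93 and 2.98 against 2.94 to 6.84, and Sycp3 4.27 and 1.15 against 3.18 to 6.48. The genotypes overlapped in all of these. Smc1b had 0 reads in CTR and 14 over the 4 matKO libraries, at least 2.64-fold higher with the same floor over the CTR group. Without matKO replicate 3 the count of members called was also 0.

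Of 7 members with enough reads for the alleles in ExE, 1 was unequal in CTR libraries (31.5% of all 6857 genes in either direction). Stk31 had 77.3% (62.2 to 88.5) and 67.3% (52.9 to 79.7) maternal reads (log2 paternal over maternal -1.28, SE 0.41, edgeR adjusted p = 0.0162), and the call was lost without either CTR library (0.259 without replicate 1 and 0.0540 without replicate 2). In matKO its share was 77.6%, 67.1% and 57.9% in replicates 1, 2 and 4, and 39.5% in replicate 3. That last library is the one with fewer maternal reads throughout, and its offset enters the fit. No allelic shift was called by edgeR among the 7 in matKO ExE (0.0292% of all genes towards the paternal and 0.0438% towards the maternal allele, 0.0729% in all), 0 had an unadjusted p under 0.05, and the result was the same without replicate 3.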

How the data were processed

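The values are whole-number read counts of genes as deposited by the authors, with 1 column for each FGO library, and a maternal and a paternal column for each morula and ExE library, which were summed for tests of level. Gene symbols come from the table, and coordinates and promoters from RefSeq (GRCm38.p6). The submitters' processing notes name STAR 2.7.3, RSEM 1.3.1 and the build mm10 for the whole series. How the counts were made, and how reads were split between parents, is not stated in those sources. Libraries were made with the SMART-Seq v4 and Nextera XT kits, per the labels' protocols, and do not mark strand.

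Groups were compared within a stage with edgeR 4.0.16 (TMM factors, filterByExpr, robust quasi-likelihood F test) in R 4.3.3, with Benjamini-Hochberg adjustment over all genes tested and a threshold of 0.05. Folds are log2 values of knockout over control. Their SE is taken from the F statistic, and their 95% intervals use a normal quantile, which makes them narrower than the F test implies. Alleles were tested with a term for each library, allele and allele by genotype, with autosomal totals of each allele column as offsets for genes averaging 20 reads or more; genes on the X were omitted in ExE. DESeq2 1.42.0 was an alternative, and scripts were tested on simulated data. Shares of reads carry 95% exact Clopper-Pearson intervals; these and floors of 3 counts cover counting error only.

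The members, role groups and wider list were chosen with earlier results of these data known. The rule for members named with values took those called in any comparison and the 3 of each role group with the highest CTR oocyte CPM. Their oocyte values are given in full; in embryos, contrary to the plan, some are given by range or reads only, or not at all. Other members named with values were chosen after their values were seen. The 40 CUT&RUN samples and 4 RNA samples of reciprocal-cross morulae were not analysed here. The plan assumed levels per kilobase, which were not computed.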

Additional observations from a re-analysis of the deposited data

Results flagged for a closer look

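For 5 members the change in morulae differed from that in oocytes in the test of the difference itself, on the log2 scale: Meioc by -4.37, Sycp3 by -1.29, Rbm46 by -11.39, Sycp2 by 2.56 and Ddx4 by 2.13. The value of Rbm46 is a fitted one that rests on 2 morula reads in CTR and none in matKO, and has no interpretable size. In the 4 matKO ExE libraries, replicate 3 lay apart from the other 3 in the maternal share of autosomal reads (35.1%) and in the level of Mov10l1 (4.59 CPM). The level was checked in 13 members and the maternal share in 7, and chance alone marks about 1 in 20 such groups of 4.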

How the results depend on the processing

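Under the alternatives run, no called member changed sign. Of 1547 values of members that passed the filter, 1446 kept their call status, 49 gained a call and 52 lost one. Values called in neither fit could change sign, as for Dmc1 in oocytes, with log2 changes of -0.13 to 0.39 over the alternatives. The count of members called in KO oocytes was 13, with 16 by the DESeq2 Wald test, and 10 to 18 with 1 library left out. In matKO morulae, where none were called, 2 were called by the DESeq2 Wald test (Ddx4 and Sycp1), 2 without a filter on low counts, 2 with a replicate block (Ddx4 and Majin in both), and 0 to 4 with 1 library left out. Members with unequal alleles in CTR morulae numbered 2 to 7 with 1 library left out. Those in CTR ExE numbered 2 at a mean of at least 50 reads, 0 with 1 library size for both alleles, and 0 to 1 with 1 library left out. Members whose change differed between oocytes and morulae numbered 9 with a replicate block and 1 to 6 with 1 library left out. The cause of these moves was not tested. Calls over all genes moved too. KO oocytes had 972, with 2021 under the block, 1630 without the filter and 1238 by DESeq2. In the same order, morulae had 12, with 310, 489 and 208, and ExE had 0, with 878, 112 and 214. The block in ExE was fitted on replicates 1 and 2 of each genotype only.

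Libraries with the same replicate number deviated together in oocytes and morulae (correlation 0.346 and 0.148). With 2 pairs in each of these stages, the other pairing gives the same value with a minus sign. In ExE the correlations were 0.301 and 0.146 for the same number, and 0.364 for CTR replicate 2 with matKO replicate 3. The numbers were therefore not taken to pair the samples. The block gave 18 called in oocytes. It gave 0 in ExE, where matKO replicates 3 and 4 were left out of that fit. In the embryos 17 members in morulae and 26 in ExE had too few assigned reads to be tested; depth and a lack of readable strain differences were not told apart. With a single CTR or knockout library left, that library is assumed to vary like the others.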
